A study of Mus musculus with 6 samples.

Results

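The primary cilium genes described here are a list of 47 mouse genes for intraflagellar transport (IFT), the BBSome, the ciliary motors, the basal body, the transition zone, the polycystins and tubulin glutamylation, given by name. No value enters the rule that defines the list, but the list was drawn up with earlier results of these data known. After Ensembl identifiers had been translated into mouse gene symbols, 46 of the 47 were found among the 11234 genes with values, and *Tctn2* was not analysed here. RNA-seq was performed on MC3T3-E1 cells, a mouse pre-osteoblast line labelled as C57BL/6, at passage 4. Of the 6 libraries, 3 came from control cells without the compound and 3 from cells given cyanidin-3-O-glucoside (C3G), a plant anthocyanin, at 100 μmol/L for 24 h. In both groups the cells had been held without serum for 24 h and were then returned to complete medium, with or without the compound. Cells of both groups came from the same line and carried no added transgene or mutation named in the labels. Nothing in the labels states that the libraries of a group were separate cultures, so the p-values measure only the spread between these libraries, which may be technical. In bulk RNA, fewer ciliated cells and less ciliary RNA per cell cannot be told apart, and the number of cilia was not measured.

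The primary cilium is a single, non-motile projection of the cell surface, built on a centriole that serves as the basal body, with a core of microtubules. Its proteins are made in the cell body, so IFT-B complexes with kinesin-2 carry them toward the tip and IFT-A complexes with dynein-2 bring them back, while the BBSome, assembled with the GTPase Arl6, moves membrane proteins out. The transition zone at the base acts as a gate, and TTLL enzymes add glutamate chains to the tubulin of the shaft. In bone cells the cilium is known as a site of Hedgehog signalling and of responses to fluid flow, in which the polycystins Pkd1 and Pkd2 have been studied. Many of these genes are transcribed under RFX factors, which bind the X-box, an inverted repeat related to the core GTTGCC or, on the other strand, GGCAAC.

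Promoter sequences from 250 bases before to 50 bases after the gene start (RefSeq, build GRCm38.p6) were matched for 41 of the 46 genes, with 43 entries in all. The RefSeq start lay within 250 bases of the GENCODE M21 gene start for 38 of the 43 entries. It lay 7388 bases inside the gene for *Dync2h1* and 5101 bases inside for *Ift46*, so their sequences are not those of the outermost start. The core GGCAAC, searched on both strands, was present in 19 of 41 promoters (46.3%), against 1282 of the 8801 matched genes with values (14.6%) and 14.1% of 27025 RefSeq promoters. The longer X-box, searched on both strands, was found in 5 of 41 promoters (12.2%), all 5 of which also held the core, compared with 1.84% of the matched genes with values. CCAAT, searched on both strands, was found in 24 of 41 promoters (58.5%) and in 43.9% of the matched genes with values. The median GC content of the promoters was 59.7% in the cilium genes and 61.0% in the matched genes with values. Stretches of 30 bases around the motif are printed for the 5 genes with an X-box and for *Ift88* and *Ift172*. Both *Ift88* and *Ift172* encode IFT-B subunits and hold only the core. The stretches show what the motif looks like in the promoters that hold it. They are read 5′ to 3′ along the strand of the gene, with the match in capitals.
Bbs1 (chr19:4906605-4906634, minus strand): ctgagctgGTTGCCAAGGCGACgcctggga
Ift57 (chr16:49699226-49699255, plus strand): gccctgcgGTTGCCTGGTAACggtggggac
B9d2 (chr7:25680788-25680817, plus strand): aacctgctGTTGCCCCAGCAACagtcgggg
Tctn3 (chr19:40612350-40612379, minus strand): tcccagcgGTTGCCAGGTAACgggaaccac
Tctn1 (chr5:122264411-122264440, minus strand): gcgctaggctgtgactGTTGCCCGGGCAAC
Ift88 (chr14:57424080-57424109, plus strand): ggagtcgcgcctGGCAACggctgggcgtcc
Ift172 (chr5:31291097-31291126, minus strand): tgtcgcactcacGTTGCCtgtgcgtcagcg
These matches are descriptions of letters and not measured binding sites. The transition zone held the core in 5 of its 7 matched promoters, IFT-B in 4 of 9, the BBSome in 3 of 7 and IFT-A in 2 of 5. The motors held it in 2 of 4, with *Dync2h1* among them, the basal body in 1 of 2, the ARL GTPases in 1 of 3 and the polycystins in 0 of 2. Among the glutamylases, *Ttll5* held the core and *Ttll4* did not. The 19 genes with the core had a median level of 4.06 FPKM, and the 22 without it had 6.29 FPKM. The median log2 difference between C3G and control was 0.027 for genes with the core and 0.11 for genes without it, and the median GC content of their longest transcripts was 51.4% and 47.1%. The part of GC content in this gap was not tested. FPKM is a fragment count scaled to the length of the gene model and to the mapped fragments of the library, which puts genes of different length on a common scale. The ratio between genes still varied with the library, as described with the GC content of transcripts.

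All 46 genes had a value above 0 in all 6 libraries. Their median level, as the mean of the 6 libraries, was 4.44 FPKM, against 7.20 FPKM for all 11234 genes, and 17 of the 46 lay above the median gene. Their levels ran from 0.460 FPKM for *Mks1*, a transition zone gene, to 79.6 FPKM for *Arl3*, a GTPase that releases lipidated cargo inside the cilium, a ratio of 172.9. At least 10 FPKM was measured for 13 genes, 2 to 10 FPKM for 24 and less than 2 FPKM for 9. The role with the highest median among those of 5 or more genes was the motors, at 13.8 FPKM, followed by IFT-B at 11.4 FPKM, IFT-A at 4.46 FPKM, the transition zone at 3.41 FPKM and the BBSome at 2.86 FPKM. These ranges overlapped widely, from 2.66 to 30.8 FPKM in IFT-B and from 1.07 to 5.89 FPKM in the BBSome. Within the BBSome, *Bbs1* was the most abundant and *Bbs4* the least.

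**Figure D1:**
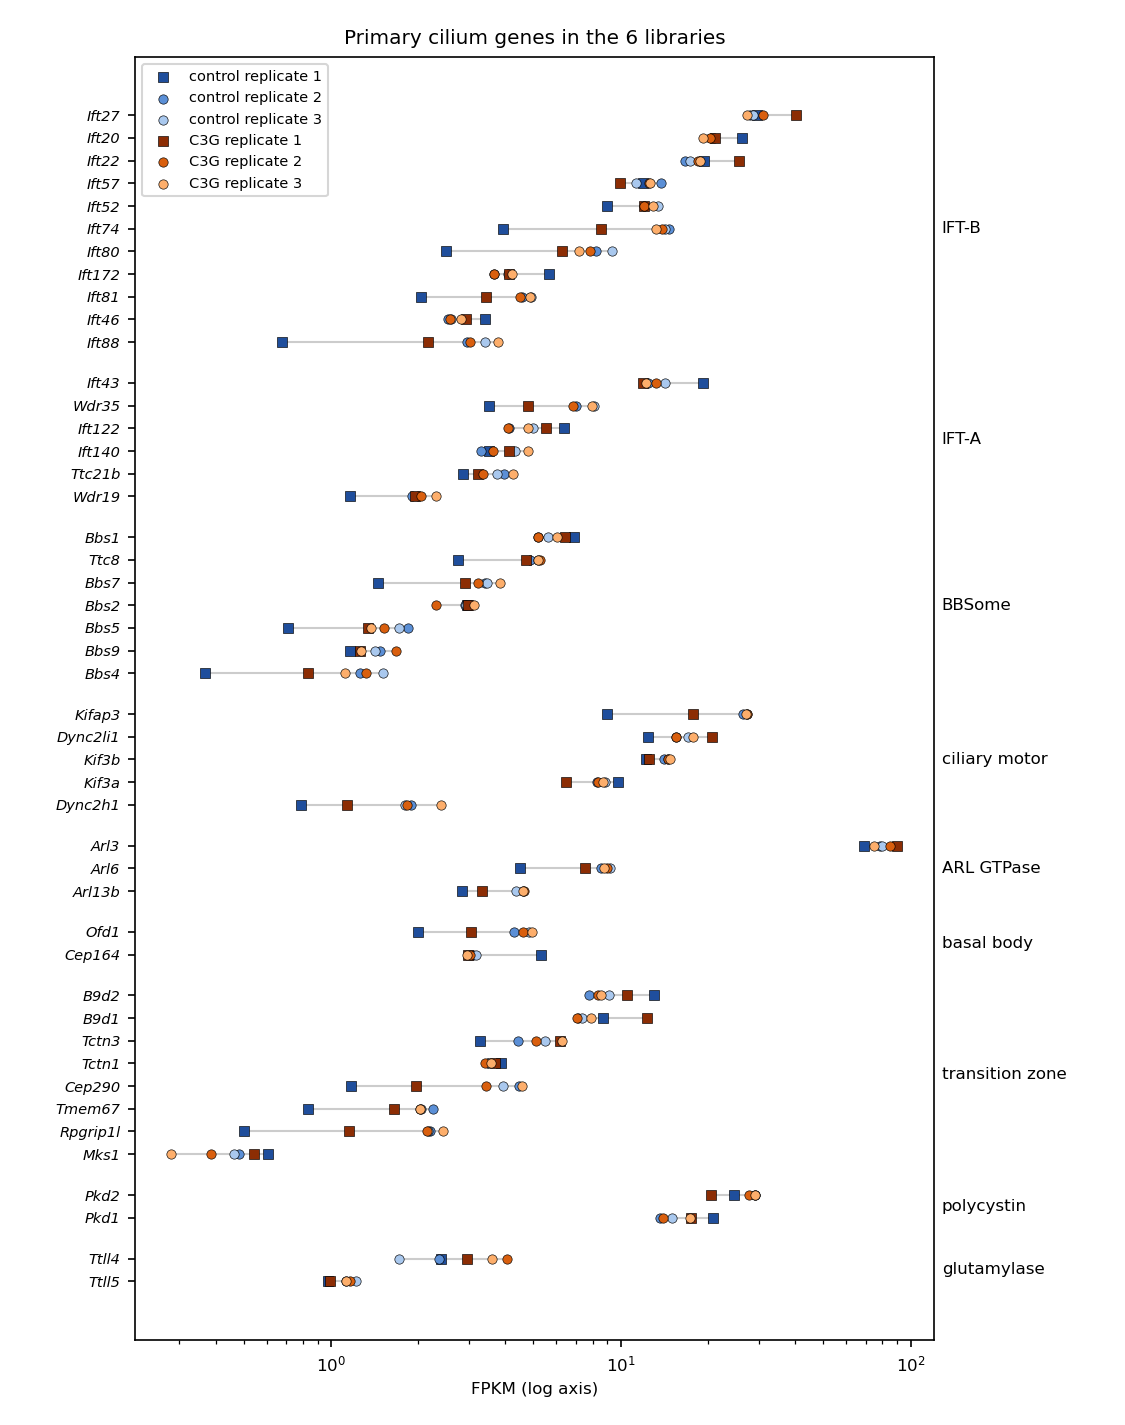
The level of each of the 46 cilium genes in FPKM on a log axis, grouped by role, with a point for each of the 3 control and 3 C3G libraries. Points of both groups overlap for 44 of the 46 genes, and control replicate 1 is the lowest library for 26 of them.

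The libraries were not alike. Control replicate 1 had a median level of 5.80 FPKM over all genes against 6.93 to 7.40 in the others, and its correlation with them was 0.886 to 0.939, against 0.968 to 0.992 among the rest. In this library the cilium genes were low as a set, with a median log2 departure from the mean of controls 2 and 3 of −0.22, close to that of all genes (−0.20). It was the lowest library for 26 of the 46 genes, and the lowest for 50.4% of all genes. In 6 cilium genes, singled out after their values were seen, the departure exceeded 1 on the log2 scale, and in all of them it was downward. They were *Ift74* (−1.65), *Ift80* (−1.48), *Kifap3* (−1.48), *Ift88* (−1.32), *Cep290* (−1.25) and *Rpgrip1l* (−1.09), which encode IFT-B, kinesin-2 and transition zone proteins. *Cep290*, a tether of the transition zone membrane, was at 1.18, 4.46 and 3.92 FPKM in the controls and at 1.97, 3.42 and 4.55 FPKM with C3G. In both groups the library numbered 1 was lowest for this gene, and the groups overlapped.

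Across the 46 genes this departure followed the GC content of the longest transcript, which ran from 38.7% to 57.7%, with Spearman's rho of 0.83 and Pearson's r of 0.82 for control replicate 1. C3G replicate 1, set against C3G replicates 2 and 3, showed the same order with rho of 0.71 and r of 0.69. These are descriptions across genes, which share their library and are not independent, and over all genes the rho values were 0.75 and 0.63. All 16 cilium genes with a GC content under 45% were lower in control replicate 1 than in the mean of controls 2 and 3, with a median of −0.87. Of the 16 genes at 50% or more, 14 were higher in it, with a median of 0.27. The difference between C3G and control followed the same classes, with a median log2 difference of 0.19 and 16 of 16 above 0 in the low class, 0.067 and 9 of 14 above 0 in the middle class, and −0.018 and 6 of 16 above 0 in the high class. When replicates 2 and 3 of each group were used alone, the 3 medians were 0.013, 0.0026 and 0.029. The part of library composition in the group differences was not tested, and values from replicates 2 and 3, or corrected for GC, are given with many of the results.

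**Figure D2:**
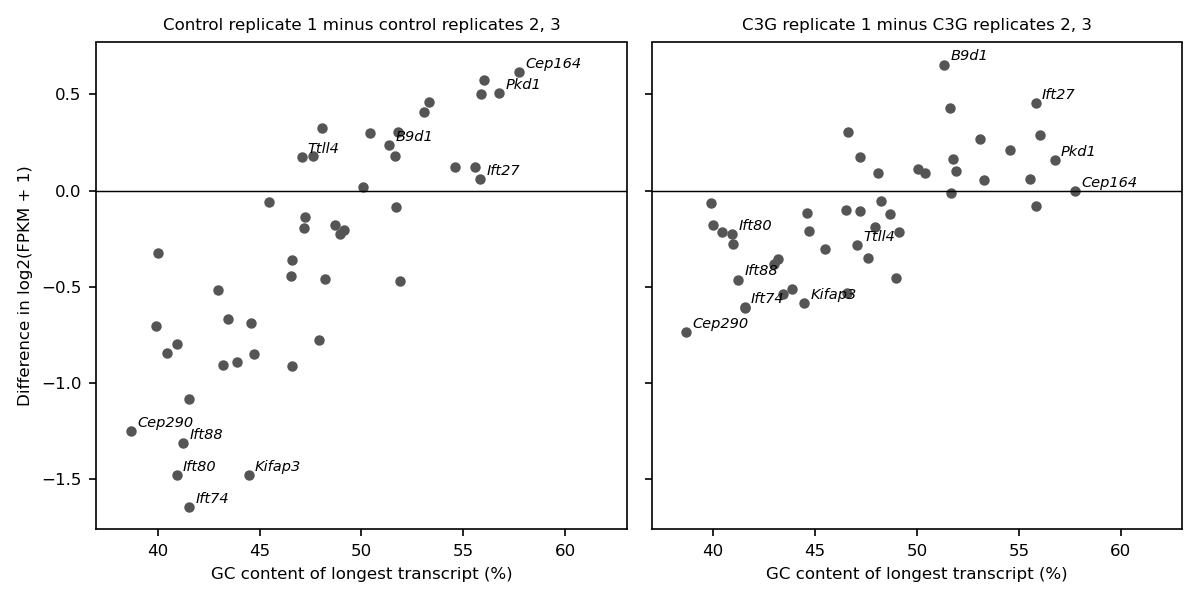
The log2 departure of replicate 1 from the mean of replicates 2 and 3 of its group, plotted against the GC content in percent of the longest transcript, for control and for C3G, with a point per cilium gene. In control replicate 1 all 16 genes under 45% GC lie below 0 and 14 of the 16 genes at 50% or more lie above it.

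The question for the treatment was whether C3G moved the expression of this machinery. The test was limma on log2(FPKM + 1), and a gene was called when its two-sided p without adjustment was under 0.05 and its fold reached 1.2. Of the 46 cilium genes 1 was called, the glutamylase gene *Ttll4*, and it was higher with C3G. Over all genes 73 of 11234 were called (0.650%), of which 45 were higher (0.401%) and 28 lower (0.249%), and the split became 30 to 30 under quantile normalization. By p alone 1 cilium gene passed, beside 0.659% of all genes. With the replicate numbers as a block 1 cilium gene was called, beside 1.50% of all genes, and with replicates 2 and 3 only it was again 1, beside 1.70%. No gene passed after Benjamini-Hochberg adjustment over all 11234 genes, and the smallest adjusted p among the 46 was 0.992. The 3 libraries of a group lay entirely to a side of the other group in 2 of the 46, *Ttll4* upward and *Cep164* downward, against 452 of all genes (4.02%), 2.55% upward and 1.48% downward. A fold of 1.2 or more was reached by 4 cilium genes, *Ttll4*, *Tctn3*, *Ift88* and *Kifap3*, all upward, compared with 22.3% of all genes in either direction. The share of all genes was not split by direction at this fold. Without control replicate 1 the log2 difference was 0.58 for *Ttll4*, 0.20 for *Tctn3*, −0.087 for *Ift88* and −0.17 for *Kifap3*.

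The median log2 difference of the 46 genes was 0.10, beside 0.057 for all genes, and 31 of 46 lay above 0 beside 62.0% of all genes. Within the pairs of libraries that share a number the median was 0.31 for number 1, 0.0054 for number 2 and 0.013 for number 3, beside 0.19, −0.0096 and −0.012 for all genes. Under quantile normalization the median was 0.015 with 24 of 46 above 0, beside −0.0032 for all genes, and under median centring 0.037 with 26 above 0, beside −0.0083. With the GC correction it was 0.056 with 29 above 0, beside 0.058, and in replicates 2 and 3 it was 0.010 with 27 above 0, beside −0.011. Without control replicate 1 the median was −0.048, with 17 of 46 above 0, beside −0.012 for all genes. For the 45 genes other than *Ttll4* the differences ran from −0.26 to 0.36, with a smallest p of 0.118 in limma, and from −0.20 to 0.17 in replicates 2 and 3. The 95% interval of the difference lay within ±1 on the log2 scale for 40 of the 46 genes, and within ±0.5 for 11. With the replicate numbers as a block, it lay within ±1 for 46. With replicates 2 and 3 only, it lay within ±0.5 for 43. That fit leaves out both libraries numbered 1 and their spread, so its narrower intervals do not show that the differences are small. For the 45 genes other than *Ttll4* the interval over the 6 libraries included 0.

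**Figure D3:**
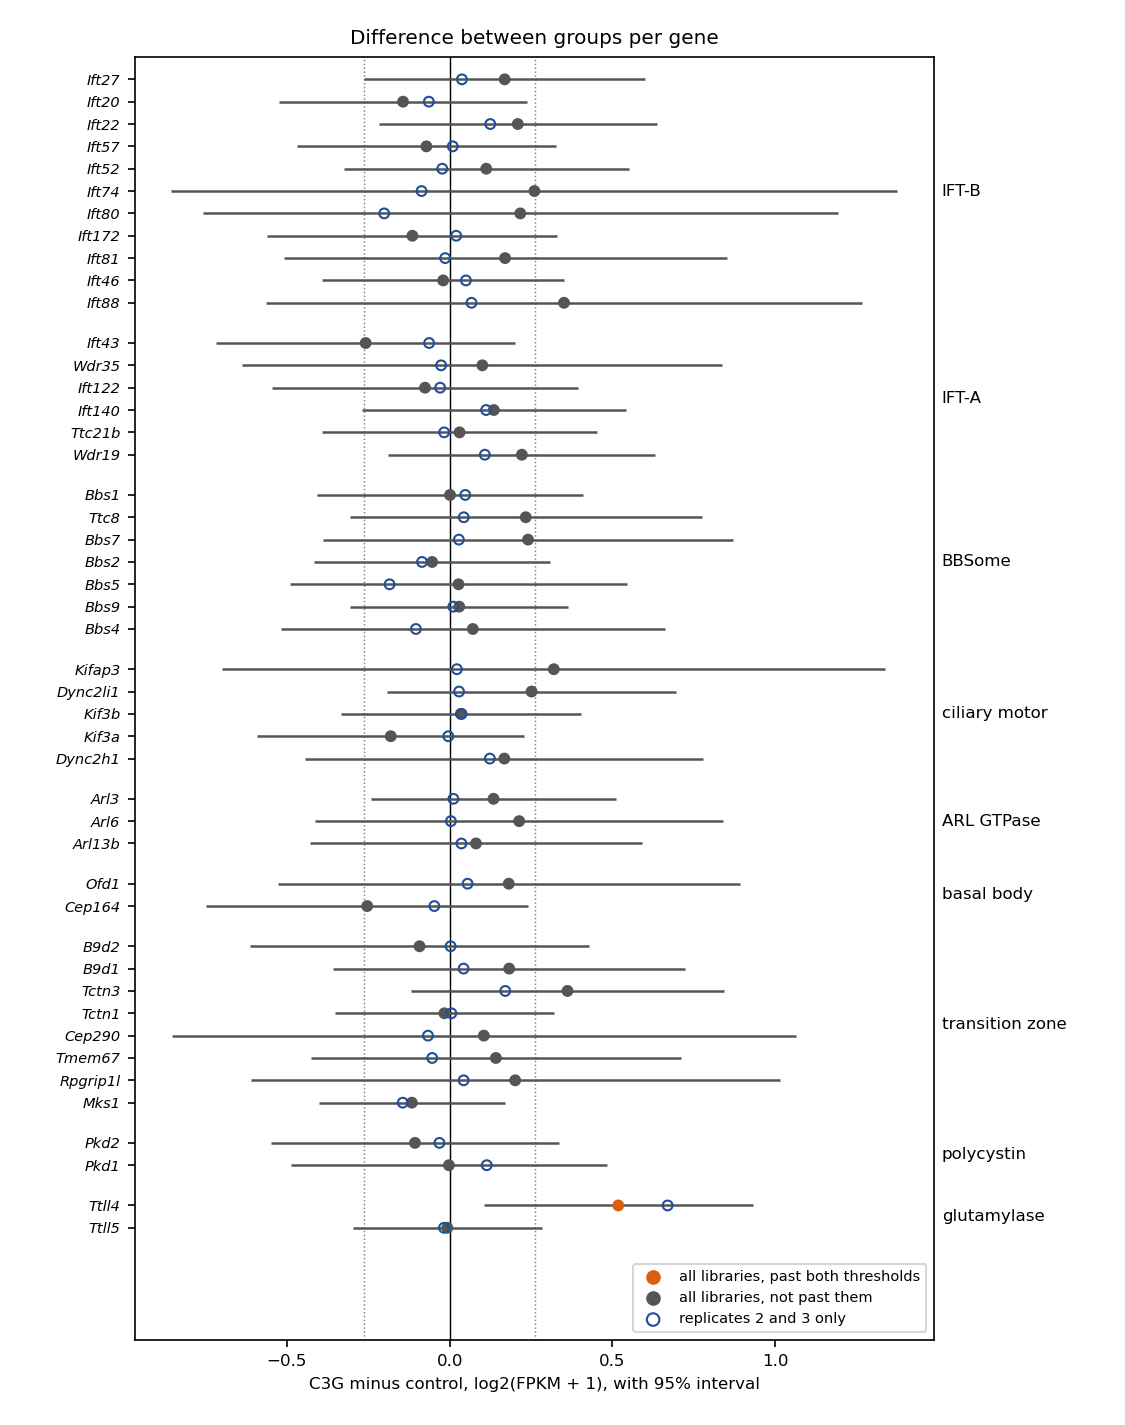
The difference between C3G and control on the log2(FPKM + 1) scale for each of the 46 cilium genes, with its 95% interval from limma over 6 libraries, the estimate from replicates 2 and 3 only as open circles, and dotted lines at a fold of 1.2. The interval of *Ttll4* alone lies entirely above 0, from 0.11 to 0.93.

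*Ttll4* (ENSMUSG00000033257.14, chr1:74661745-74703730, plus strand) encodes a glutamylase that starts glutamate side chains on tubulin and other proteins. It was at 2.41, 2.36 and 1.72 FPKM in the controls and at 2.95, 4.04 and 3.58 FPKM with C3G. Every C3G library was above every control library. The means were 2.16 ± 0.385 and 3.53 ± 0.546 FPKM (SD, n = 3 each). *Ttll4* rose by 0.52 on the log2(FPKM + 1) scale, with an SE of 0.174 and a 95% interval of 0.11 to 0.93, by limma's unadjusted p of 0.0211 and adjusted p of 0.992. The exact two-sided permutation test gave p = 0.1, the smallest that 3 against 3 libraries allow. The differences within the numbered pairs were 0.21, 0.59 and 0.75. It stayed past the threshold in 10 of 15 alternative settings and above 0 in all of them, from 0.41 to 0.69. Replicates 2 and 3 alone gave 0.67 and the GC correction gave 0.47, and both kept the call. The call was lost with median centring (0.45), with quantile normalization (0.41) and without control replicate 3 (0.41), C3G replicate 2 (0.44) or C3G replicate 3 (0.51). The study listed *Ttll4* among its own differentially expressed genes from the same libraries, so the call is not independent evidence.

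*Ttll5* (chr12:85824659-86061893) encodes another glutamylase, with targets that include ciliary proteins. Its levels were 0.975, 1.12 and 1.22 FPKM in control and 0.994, 1.16 and 1.13 FPKM with C3G. The groups overlapped almost completely, and the difference was −0.0072 with a 95% interval of −0.30 to 0.28. The ratio of *Ttll4* to *Ttll5* was 2.47, 2.1 and 1.41 in the controls and 2.97, 3.48 and 3.18 with C3G. Since *Ttll5* varied little, the separation of this ratio restates that of *Ttll4* and is not a further result.

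**Figure D4:**
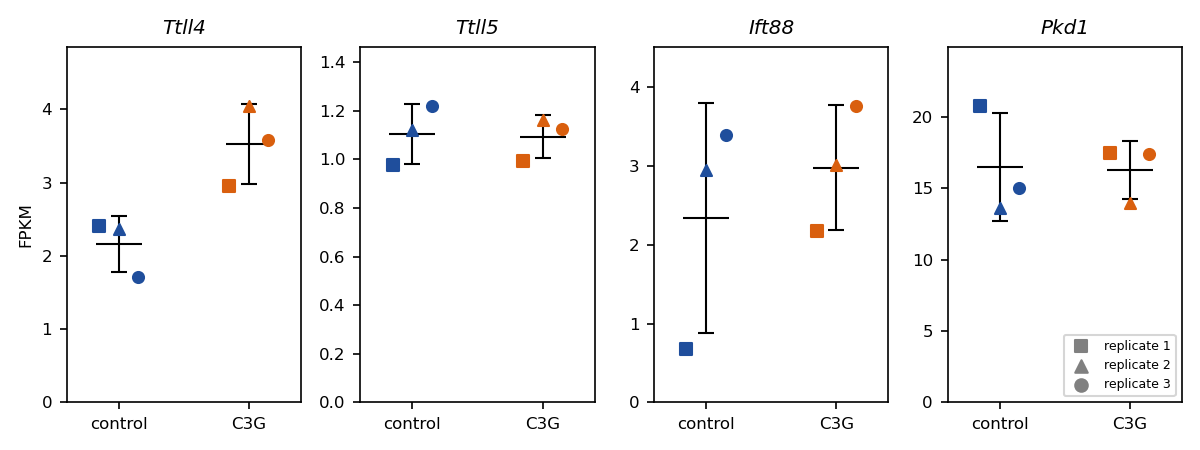
FPKM in each library for *Ttll4*, *Ttll5*, *Ift88* and *Pkd1*, with a marker shape per replicate number, a long line for the mean and bars for the SD of 3 libraries. The groups separate for *Ttll4* and overlap for the other 3, and control replicate 1 is the lowest control for *Ttll5* and *Ift88* and the highest for *Ttll4* and *Pkd1*.

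None of the 11 IFT-B genes passed the test. *Ift88* (chr14:57424062-57517936), whose product is needed to build the cilium, was at 0.676, 2.96 and 3.40 FPKM in control and 2.17, 3.01 and 3.76 FPKM with C3G. The groups overlapped, and the low value was that of control replicate 1. The difference was 0.35 with an SE of 0.385 and a 95% interval of −0.56 to 1.27 (p = 0.393 in limma and 0.6 in the exact permutation test). It was 0.067 in replicates 2 and 3, 0.21 with the GC correction and −0.087 without control replicate 1. An exon of *Ift88* overlaps the antisense gene *Ift88os*, and how the counting used strand is not given in the sources used here.

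*Ift27*, a small GTPase of IFT-B and its most abundant transcript, was at 29.6, 27.9 and 28.7 FPKM in control and 40.2, 30.9 and 27.4 FPKM with C3G. Its highest value was C3G replicate 1 and its lowest C3G replicate 3, and the difference was 0.17 (p = 0.383 in limma and 0.5 in the exact permutation test). It was 0.038 in replicates 2 and 3, 0.018 without C3G replicate 1 and 0.27 with the GC correction. *Ift22*, the other Rab-like GTPase of the complex, was at 19.4, 16.7 and 17.4 FPKM in control and 25.5, 18.5 and 18.8 FPKM with C3G, a difference of 0.21 (p = 0.283 in limma and 0.3 in the exact permutation test). The high value was again in C3G replicate 1, the groups overlapped, and replicates 2 and 3 gave 0.12. *Ift74* and *Ift81*, which encode the pair of proteins that bind tubulin as cargo, moved alike across libraries but not in the same proportion. *Ift74* was at 3.94, 14.7 and 14.2 FPKM in control and 8.57, 13.9 and 13.3 FPKM with C3G. *Ift81* was at 2.05, 4.57 and 4.89 FPKM in control and 3.43, 4.48 and 4.87 FPKM with C3G. Both were lowest in control replicate 1 and next lowest in C3G replicate 1, and replicates 2 and 3 of the groups lay close together. The ratio of *Ift74* to *Ift81* was 1.92 in control replicate 1, 2.5 in C3G replicate 1 and 2.72 to 3.23 in the other 4 libraries. The 11 genes had a median difference of 0.17 with 7 above 0, which was 0.0095 in replicates 2 and 3.

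No IFT-A gene out of 6 passed the test. *Ift43*, a small peripheral subunit, was at 19.3, 12.4 and 14.2 FPKM in control and 11.9, 13.2 and 12.2 FPKM with C3G. It had the lowest difference of the list, −0.26 (p = 0.225 in limma and 0.2 in the exact permutation test), or −0.063 in replicates 2 and 3 and −0.15 with the GC correction. The groups overlapped because C3G replicate 2 exceeded control replicate 2. The other 5 genes, *Ift122*, *Ift140*, *Ttc21b*, *Wdr19* and *Wdr35*, ran from −0.076 to 0.22. *Wdr35* and *Ift122* encode neighbouring subunits of the complex, and the ratio of their levels was 0.554 in control replicate 1 and 0.862 in C3G replicate 1, but 1.62 to 1.70 in the other 4 libraries.

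The 7 BBSome genes gave no call. *Bbs1*, whose product binds Arl6 on membranes, was at 6.89, 5.18 and 5.61 FPKM in control and 6.40, 5.20 and 6.04 FPKM with C3G. The groups overlapped fully, and the difference was 0.0012 with a 95% interval of −0.41 to 0.41 (p = 0.995 in limma and 1 in the exact permutation test). *Ttc8*, also known as Bbs8, was at 2.74, 4.87 and 5.20 FPKM in control and 4.72, 5.25 and 5.18 FPKM with C3G. Control replicate 1 alone was low, and the difference of 0.23 (p = 0.339 in limma and 0.6 in the exact permutation test) was 0.043 in replicates 2 and 3. The remaining genes ran from −0.054 for *Bbs2* to 0.24 for *Bbs7*, which were −0.085 and 0.028 in replicates 2 and 3.

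The 3 ARL GTPase genes also gave no call. *Arl3* was at 69.0, 78.6 and 79.8 FPKM in control and 90.1, 85.1 and 74.9 FPKM with C3G. The groups overlapped, with a difference of 0.13 (p = 0.422 in limma and 0.3 in the exact permutation test) that was 0.011 in replicates 2 and 3. *Arl6*, which recruits the BBSome, differed by 0.21, or 0.0038 in replicates 2 and 3. *Arl13b*, the exchange factor for Arl3, differed by 0.081, or 0.036 in replicates 2 and 3 and −0.030 with the GC correction.

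Among the 5 motor genes no call was made. *Kifap3* (chr1:163779583-163917109), the adaptor that links kinesin-2 to cargo, was at 8.97, 26.5 and 27.2 FPKM in control and 17.8, 27.4 and 27.1 FPKM with C3G. The 4 libraries numbered 2 and 3 lay within 26.5 to 27.4 FPKM, and the 2 numbered 1 lay below. The difference was 0.32 with a 95% interval of −0.70 to 1.34 (p = 0.480 in limma and 0.6 in the exact permutation test), or 0.022 in replicates 2 and 3. *Kif3a*, the motor subunit, was at 9.80, 8.27 and 8.81 FPKM in control and 6.45, 8.35 and 8.67 FPKM with C3G. It was thus highest in control replicate 1 and lowest in C3G replicate 1, and the ratio of *Kifap3* to *Kif3a* was 0.915 in the former and 2.76 to 3.28 in the other 5 libraries. *Dync2li1*, the light intermediate chain of dynein-2, was at 12.4, 15.5 and 17.0 FPKM in control and 20.7, 15.5 and 17.7 FPKM with C3G, a difference of 0.25 (p = 0.222 in limma and 0.2 in the exact permutation test). The groups overlapped, and the value in replicates 2 and 3 was 0.029. *Dync2h1*, its heavy chain, was at 0.790, 1.90 and 1.80 FPKM in control and 1.14, 1.83 and 2.40 FPKM with C3G.

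At the base of the cilium, neither basal body gene passed the test. *Cep164* (chr9:45766946-45828691), a distal appendage gene needed for docking of the basal body, was at 5.31, 3.09 and 3.16 FPKM in control and 2.98, 3.03 and 2.95 FPKM with C3G. Every C3G library was below every control library, but the nearest values differed by little and control replicate 1 stood apart. The difference was −0.25 with a 95% interval of −0.75 to 0.24, and limma gave p = 0.263 and the exact permutation test 0.1, the smallest possible. In replicates 2 and 3 it was −0.047, and with the GC correction −0.105. *Ofd1*, which limits centriole length, was at 1.99, 4.29 and 4.82 FPKM in control and 3.04, 4.60 and 4.94 FPKM with C3G. The groups overlapped, and the difference was 0.18 (p = 0.563 in limma and 0.6 in the exact permutation test), or 0.055 in replicates 2 and 3.

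The 8 transition zone genes with values gave no call. *Tctn3* (chr19:40596446-40612233), a tectonic of the transition zone membrane complex, was at 3.28, 4.43 and 5.48 FPKM in control and 6.16, 5.11 and 6.29 FPKM with C3G. A single control library, replicate 3, exceeded a C3G library. Its difference of 0.36 (SE 0.203, 95% interval −0.12 to 0.84) was the highest of the list after *Ttll4*, with limma p = 0.118 and an exact permutation p of 0.2. It was 0.17 in replicates 2 and 3 and 0.40 with the GC correction. *B9d2*, of the B9 complex, was at 13.0, 7.76 and 9.11 FPKM in control and 10.5, 8.35 and 8.52 FPKM with C3G, a difference of −0.093 (p = 0.685 in limma and 0.8 in the exact permutation test). Control replicate 1 was its highest library and the groups overlapped. The difference of *B9d2* turned to 0.0029 in replicates 2 and 3, 0.017 with the GC correction and 0.099 without control replicate 1. *Rpgrip1l*, a scaffold of the zone, was at 0.501, 2.20 and 2.17 FPKM in control and 1.15, 2.14 and 2.43 FPKM with C3G. *Mks1* ran from 0.281 to 0.607 FPKM, with a mean of 0.518 FPKM in control and 0.403 FPKM with C3G. Its control mean alone lies above the floor of group means given with the processing. The part of this floor in the *Mks1* difference of −0.116 was not tested. The median difference of the 8 genes was 0.12, and 0.0041 in replicates 2 and 3.

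The polycystin genes were among the more abundant of the list and neither passed the test. *Pkd1* (chr17:24549834-24596508), a large receptor-like membrane protein, was at 20.8, 13.6 and 15.0 FPKM in control and 17.5, 14.0 and 17.4 FPKM with C3G. The means were 16.5 ± 3.77 and 16.3 ± 2.02 FPKM (SD, n = 3 each). The groups overlapped, and the difference was −0.0022 with a 95% interval of −0.49 to 0.48 (p = 0.992 in limma and 1 in the exact permutation test), or 0.11 in replicates 2 and 3. *Pkd1* overlaps *Tsc2* on the opposite strand. *Pkd2* (chr5:104459450-104505819), its cation channel partner, was at 24.7, 29.0 and 29.2 FPKM in control and 20.5, 27.8 and 29.1 FPKM with C3G. Replicate 1 of each group was lowest, in contrast to *Pkd1*, and the difference was −0.11 (p = 0.585 in limma and 0.6 in the exact permutation test). That difference was −0.031 in replicates 2 and 3 and 0.045 without C3G replicate 1. The ratio of *Pkd2* to *Pkd1* was 1.19 and 1.17 in the libraries numbered 1 and 1.67 to 2.13 in the other 4.

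Further genes of the ciliary pathway were taken from lists by role. Of 102 with values, without the motile cilium and cell type lists given last, 0 rose and 1 fell at the same thresholds, beside 0.401% and 0.249% of all genes. The gene that fell was *Dynll2*, a dynein light chain shared by dynein-2, cytoplasmic dynein and myosin V. It was at 68.1, 41.5 and 54.5 FPKM in control and 33.8, 30.4 and 30.4 FPKM with C3G, with all C3G libraries below all controls. The change was −0.75 with an SE of 0.208. Limma gave p = 0.00931, or an adjusted p of 0.992, and the exact permutation test gave 0.1. All 15 alternatives kept the call, with values from −0.93 to −0.58. The other 8 dynein-2 and kinesin-2 genes with values were not called, the most abundant being *Dynlrb1*, another light chain, at a mean of 76.6 FPKM. The lists of other IFT and BBSome genes, not all of them subunits (12 genes, median difference 0.14, or 0.0013 in replicates 2 and 3), other transition zone and basal body genes (24, 0.048, or −0.027), ciliary membrane traffic (14, 0.047, or −0.031), other tubulin modification (15, −0.026, or −0.0038), cilium disassembly (10, 0.041, or −0.050) and RFX factors (5, 0.041, or 0.030) gave no call in either direction over the 6 libraries. In replicates 2 and 3 only, *Pde6d* and *Mkks* of these lists were called, both lower with C3G. Over all genes that setting called 191 of 11234 (1.70%), of which 103 were lower. *Mkks*, a chaperonin-like gene needed for BBSome assembly, was at 0.755, 6.19 and 6.32 FPKM in control and 2.84, 3.62 and 3.39 FPKM with C3G. Control replicate 1 was its lowest library and the groups overlapped, so the difference was −0.083 over all libraries (p = 0.884 in limma and 1 in the exact permutation test) and −0.69 in replicates 2 and 3, with a 95% interval of −0.92 to −0.46. Its description was chosen after its values were seen. The most abundant genes of these lists were *Tulp3* at a mean of 18.3 FPKM, *Cby1* at 32.2, *Ehd1* at 52.1, *Tpgs1* at 30.6, *Plk1* at 69.8 and *Rfx7* at 5.42 FPKM, in the same order.

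The Hedgehog pathway, which signals through the cilium, had 13 genes with values, a median difference of −0.016, or 0.025 in replicates 2 and 3, and no call. Its most abundant gene was *Gas1*, a co-receptor, at 566.1, 187.1 and 223.4 FPKM in control and 299.7, 192.0 and 214.7 FPKM with C3G. *Smo*, *Gli1* and *Ptch1* are given for their place in the pathway and were chosen after their values were seen. *Smo*, the transducer that enters the cilium, was at 64.1, 41.9 and 40.9 FPKM in control and 55.9, 45.1 and 42.1 FPKM with C3G. *Gli1*, a target gene of the pathway, was at 13.5, 8.89 and 9.59 FPKM in control and 10.2, 8.01 and 8.87 FPKM with C3G (p = 0.354 in limma and 0.4 in the exact permutation test). *Ptch1*, the receptor and also a target, was at 1.93, 5.78 and 4.37 FPKM in control and 3.29, 6.10 and 4.92 FPKM with C3G (p = 0.493 in limma and 0.6 in the exact permutation test). In all 3 genes the groups overlapped and control replicate 1 was the extreme control, upward for *Smo* and *Gli1* and downward for *Ptch1*. *Pde6d*, a carrier of lipidated proteins that Arl3 unloads, was at 29.8, 13.7 and 13.2 FPKM in control and 18.4, 9.30 and 10.5 FPKM with C3G. Its difference of −0.50 was not called (p = 0.233 in limma and 0.4 in the exact permutation test), with a 95% interval of −1.40 to 0.40. With the replicate numbers as a block it was called, with an interval of −0.84 to −0.15. It was called in 3 of 15 alternatives and in 0 of the 6 that left out a library, where it ran from −0.77 to −0.13, the latter without control replicate 1.

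The labelled cell type was checked with marker lists. Of 8 osteoblast markers 7 had values, with a median level of 285.6 FPKM, and none was called. *Col1a1*, the main collagen of bone, was at 4432, 942.2 and 1221 FPKM in control and 1478, 922.6 and 1246 FPKM with C3G. *Sp7*, a defining transcription factor of committed osteoblasts, was at 0.237 to 0.857 FPKM. The 5 adipocyte and 5 endothelial markers were not among the genes with values, and of 6 macrophage markers 2 were, *Lyz2* and *Cd68*. Their summed level was 32.3 to 41.0 FPKM in control and 45.8 to 55.5 FPKM with C3G, nearly all of it *Lyz2*, while *Cd68* was at 0.144 to 1.25 FPKM. *Lyz2*, a lysozyme, was at 32.1, 40.4 and 38.2 FPKM in control and 52.2, 45.1 and 54.3 FPKM with C3G, and it rose by 0.44 (p = 0.0315 in limma, 0.992 after adjustment, and 0.1 in the exact permutation test). It kept the call in 11 of 15 alternatives, and lost it with median centring and without control replicate 3, C3G replicate 1 or C3G replicate 3. The part of *Lyz2*-expressing cells in the difference of *Ttll4* was not tested. Of 26 genes of motile cilia 6 had values, mostly low, the most abundant being *Gas8*, a dynein regulator, at a mean of 8.04 FPKM. *Iqcd* was the only gene of them called, at 2.00, 1.21 and 1.51 FPKM in control and 0.927, 0.850 and 1.07 FPKM with C3G, a change of −0.39 (p = 0.0421 in limma, 0.992 after adjustment, and 0.1 in the exact permutation test) that held in 5 of 15 alternatives and was lost when any library but control replicate 2 was left out. The study drew its own list of differentially expressed genes from these libraries, with *Lyz2* and *Iqcd* on it, so neither call is independent evidence.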

How the data were processed

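The authors extracted total RNA, made stranded libraries, and used Ballgown to calculate gene FPKM. The deposited FPKM values were taken without further scaling. The submitters' processing notes name cutadapt, HISAT2 2.1.0, STAR 2.5.2b and StringTie without roles, and the human build hg19, although all identifiers are mouse. The gene filter is not given in the sources used here. Every gene has a mean of at least 0.500 FPKM in a group, so genes low in both groups cannot be seen. Low values showed no common read step, so depth is unknown. Symbols were matched for 11211 of 11234 genes, and positions, overlaps and GC content were taken from GENCODE M21 (GRCm38).

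Groups came from the sample labels, and the time from the study's methods. The label writes the dose as um/l, and the study's μmol/L was used. Differences were tested with limma 3.58.1 in R 4.3.3 on log2(FPKM + 1) with an intensity trend, over all genes, with group as the only term, and called at an unadjusted p under 0.05 and a fold of at least 1.2. Fold changes on this scale understate those of low genes. Single genes also had exact permutation tests. The fit was tested on simulated data. The replicate numbers in the titles were treated as pairs only in the block settings and in the differences within numbered pairs. Deviations from the group means correlated at 0.653, 0.580 and 0.440 for equal numbers. They correlated at 0.307 and 0.300 between numbers 2 and 3, and at −0.640 to −0.410 between number 1 and the others. Deviations within a group sum to 0, so a shared departure of the libraries numbered 1 also makes the others correlate. These values therefore do not establish pairs. What the numbers mark is not stated in the labels. Alternatives were a pseudocount of 0.1, a mean FPKM of at least 1, no trend, quantile normalization, median centring, the replicate block, a GC correction by spline with and without the block, replicates 2 and 3 only, and each library left out.

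Values in every library were given for *Ift88*, *Pkd1*, both glutamylases, any cilium gene with a limma p under 0.05, and in each role the gene with the highest mean FPKM and the gene with the smallest limma p. In the other lists, genes past that p and the most abundant gene were named. Further genes were singled out after their values were seen. The cilium genes and all lists were chosen with earlier results of these data known. Exons of *Ift57*, *Ift88*, *Bbs4*, *Arl6*, *Ofd1*, *Cep290*, *Tctn1*, *Tmem67* and *Pkd1* overlap a gene on the opposite strand, and reads there may be uncertain. At most 0.680% of the 75-base stretches of any cilium gene also occur in another gene.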

Additional observations from a re-analysis of the deposited data

How the results depend on the processing

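Over 15 alternatives, 229 of 255 values of the 17 genes named by rule kept their direction and their side of the threshold. Apart from *Ttll4* none of these genes was called at first, so for most of them the side of the threshold could hardly change. The replicate block, the fit without a trend and the FPKM filter leave the differences themselves unchanged. The count therefore does not measure how stable the sizes of the differences were. The count of cilium genes past the threshold (1) was 0 with quantile normalization and with median centring, and 0 to 1 when each library was left out. The count without overlap between groups (2, or 4.02% of all genes) was 1 with quantile normalization (3.96%) and under median centring (3.72%), 3 after GC correction (5.95%), 10 with replicates 2 and 3 only (24.2%), and 4 to 7 when each library was left out (8.82% to 14.0%), since fewer libraries overlap less. The median difference of the 46 genes (0.10) ran from −0.048 to 0.17 without single libraries and from 0.010 to 0.13 in the other settings. *Bbs1* turned to −0.060 with quantile normalization and −0.064 with median centring, *B9d2* to 0.017 after GC correction (block or not) and 0.0029 with replicates 2 and 3, and *Pkd1* to 0.12 and 0.11 in the same settings, and the cause was not tested. Leaving out single libraries gave −0.074 to 0.10 for *Bbs1*, −0.24 to 0.099 for *B9d2*, −0.087 to 0.61 for *Ift88*, −0.17 to 0.58 for *Kifap3*, −0.12 to 0.36 for *Ofd1*, −0.12 to 0.17 for *Pkd1*, −0.20 to 0.045 for *Pkd2* and −0.053 to 0.031 for *Ttll5*. With the replicate block 1 cilium gene was called, and calls over all genes went from 73 to 169. The block cannot change the count without overlap (2) or the median (0.10) in this balanced design. Among the further genes of the lists, only *Pde6d* gained a call with the block. Over all genes the GC correction gave 112 calls, the GC correction with the block 205, replicates 2 and 3 only 191, and leaving out single libraries 40 to 144, with 0 after adjustment in every setting. Limits are the unknown depth, 3 libraries per group, and a control library that stands apart.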
